A study of Mus musculus with 45 samples.

Results

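Interferon stimulated genes are the genes a cell switches on when an interferon binds its receptor. A list of 41 of them was followed in tuft cells of the mouse small intestine, each found by its symbol, and all 41 were present among the 47729 genes of the deposited tables and passed the filter on low counts, which kept 14020 genes. Tuft cells are rare chemosensory cells of the gut lining. They were sorted from single male C57BL/6J mice as EpCAM+Siglec-F+ cells and sequenced in bulk by Smart-seq2, 1 library per mouse. The authors' methods name the sorted cells as CD45+ but also state that cells with CD45 were excluded. The mice arrived at 5 weeks of age, were housed at thermoneutrality, and after a week on chow received either a reference diet (RFD, 10% of energy from fat) or a high-fat diet (HFD, 60% of energy from fat). After 9 weeks of feeding there were 11 RFD and 11 HFD libraries, and after 22 weeks 11 RFD and 12 HFD libraries. All 45 libraries are labelled with 9 weeks, and the second set was taken here as the mice fed for 22 weeks, so the length of feeding and the set of libraries cannot be told apart.

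Type I interferons bind the receptor made of Ifnar1 and Ifnar2, type III interferons bind Ifnlr1 with Il10rb, and interferon gamma binds Ifngr1 with Ifngr2. Receptor-bound Janus kinases then phosphorylate Stat2 and its relatives. A complex that holds Stat2 and Irf9 enters the nucleus and binds a DNA element called the ISRE, whereas interferon gamma acts foremost through a different element called GAS. The genes switched on encode sensors of foreign nucleic acid, enzymes that block viral replication, and the transcription factors of the response itself, and in the gut lining type III interferon is a main inducer.

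The ISRE core, searched as GAAA, any 2 bases and GAAA on both strands, was present in 17 of the 31 members for which a RefSeq promoter window (250 bases before to 50 after the gene start, GRCm38.p6) was given. It was present in 1131 of all 32851 such windows, or 3.44%. The GAS motif, searched as TTCNNNGAA on both strands, was present in 7 of the 31 members and in 2726 windows, or 8.30%. Matching letters describe a window and do not show that a factor binds there. Of the members that passed the test in a diet comparison, Zbp1, Parp14 and Ifi27l2b had no window. Irf7, Irf9, Oasl2, Xaf1, Ifi35 and Lgals3bp passed it as well, and their windows held no ISRE core. The 150 bases before the start are printed 5′ to 3′ on the gene's own strand for 6 members with an ISRE core that passed the test in a diet comparison, with the core matches in capitals. These are Isg15 (chr4:156200819-156200968, minus strand), Oas1g (chr5:120887614-120887763, minus strand), Oas1a (chr5:120907526-120907675, minus strand), Bst2 (chr8:71537473-71537622, minus strand), Igtp (chr11:58199406-58199555, plus strand) and Rsad2 (chr12:26456453-26456602, minus strand).
Isg15: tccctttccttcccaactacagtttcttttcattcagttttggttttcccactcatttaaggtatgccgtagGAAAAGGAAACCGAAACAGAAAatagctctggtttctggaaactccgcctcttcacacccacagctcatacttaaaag
Oas1g: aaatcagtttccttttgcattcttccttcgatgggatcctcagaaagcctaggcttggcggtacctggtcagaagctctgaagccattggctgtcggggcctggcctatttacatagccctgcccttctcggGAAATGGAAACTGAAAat
Oas1a: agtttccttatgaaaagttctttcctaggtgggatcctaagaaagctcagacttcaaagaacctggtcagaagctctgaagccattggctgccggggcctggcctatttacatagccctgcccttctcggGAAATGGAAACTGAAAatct
Bst2: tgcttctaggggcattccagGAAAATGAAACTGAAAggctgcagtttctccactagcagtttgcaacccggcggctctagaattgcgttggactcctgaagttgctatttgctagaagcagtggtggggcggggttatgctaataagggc
Igtp: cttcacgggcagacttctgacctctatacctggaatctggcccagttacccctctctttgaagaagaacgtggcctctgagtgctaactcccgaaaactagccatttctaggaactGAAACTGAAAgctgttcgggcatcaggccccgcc
Rsad2: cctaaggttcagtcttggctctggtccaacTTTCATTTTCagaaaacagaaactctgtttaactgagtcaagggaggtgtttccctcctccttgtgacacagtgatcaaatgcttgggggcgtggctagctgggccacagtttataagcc
Isg15 held 3 overlapping matches, Oas1g, Oas1a and Bst2 held 2 each, and Igtp and Rsad2 held 1 each, that of Rsad2 on the opposite strand. In the Oas1g and Oas1a windows the nearest match began 12 and 14 bases before the start, and in the Bst2 window it began 124 bases before it.

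The libraries held 189340 to 4690213 reads on genes, and the most reads on any member in one library ranged from 23 (Iigp1) to 4042 (Lgals3bp). Libraries differed in their tuft cell markers. The summed level of 16 tuft cell markers, all of them detected, ran from 242 to 19492 CPM (counts scaled to the library's total and by TMM), with no library between 3050 and 4904 CPM. Under 4000 CPM were 3 of 11 RFD libraries (mice 10, 20 and 40) and 5 of 11 HFD libraries (mice 6, 8, 50, 70 and 80) at 9 weeks, and 1 of 11 RFD (mouse 1) and 1 of 12 HFD (mouse 6) at 22 weeks. Paneth cell markers summed to more than tuft markers in 4 RFD and 8 HFD libraries at 9 weeks, and in 3 RFD and 6 HFD libraries at 22 weeks. Results are therefore given with and without these 10 libraries, called low-tuft libraries below, a limit chosen after the data were seen. In bulk RNA, fewer cells of a type and less RNA per cell cannot be told apart. The RFD library of mouse 3 at 22 weeks had only 8609 genes with a read and listed 19 of the 41 members at 0.

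Most of the members had lower levels on HFD than on RFD at both times. At 9 weeks 38 of 41 had a negative fold change (HFD against RFD, given on the log2 scale throughout), with a median of -1.13 against -0.05 over all 14020 genes tested. In edgeR's quasi-likelihood fit, with a Benjamini-Hochberg adjusted p under 0.1 as the threshold, 13 members fell and none rose. In the same comparison 3.32% of all genes passed the threshold and 1.33% passed as lower. The 13 were Irf9, Zbp1, Oas1g, Oasl2, Isg15, Parp14, Igtp, Rsad2, Bst2, Xaf1, Ifi35, Ifi27l2b and Lgals3bp. An unadjusted p under 0.05 was reached by 28 members, all lower, and by 18.0% of all genes. The fold changes ran from -2.04 (Rsad2) to 0.32 (Ifit3).

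At 22 weeks 40 of 41 members had a negative fold change, with a median of -0.72 against -0.03 over all genes. The 5 that fell were Irf7, Oas1a, Oas1g, Isg15 and Ifi27l2b, and none rose. The background was 0.792% of all genes past the threshold and 0.357% past it as lower. An unadjusted p under 0.05 was reached by 17 members and by 10.3% of all genes. Fold changes ran from -1.36 (Isg15) to 0.23 (Gbp2). Oas1g, Isg15 and Ifi27l2b fell at both times, which is 23.1% of the 13 and 60.0% of the 5. Over all genes, 40 were called at both times, or 8.58% of those called at 9 weeks and 36.0% of those called at 22 weeks. For every member and at both times the RFD and HFD libraries overlapped in level. The share of all genes with such overlap was not counted.

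**Figure D1:**
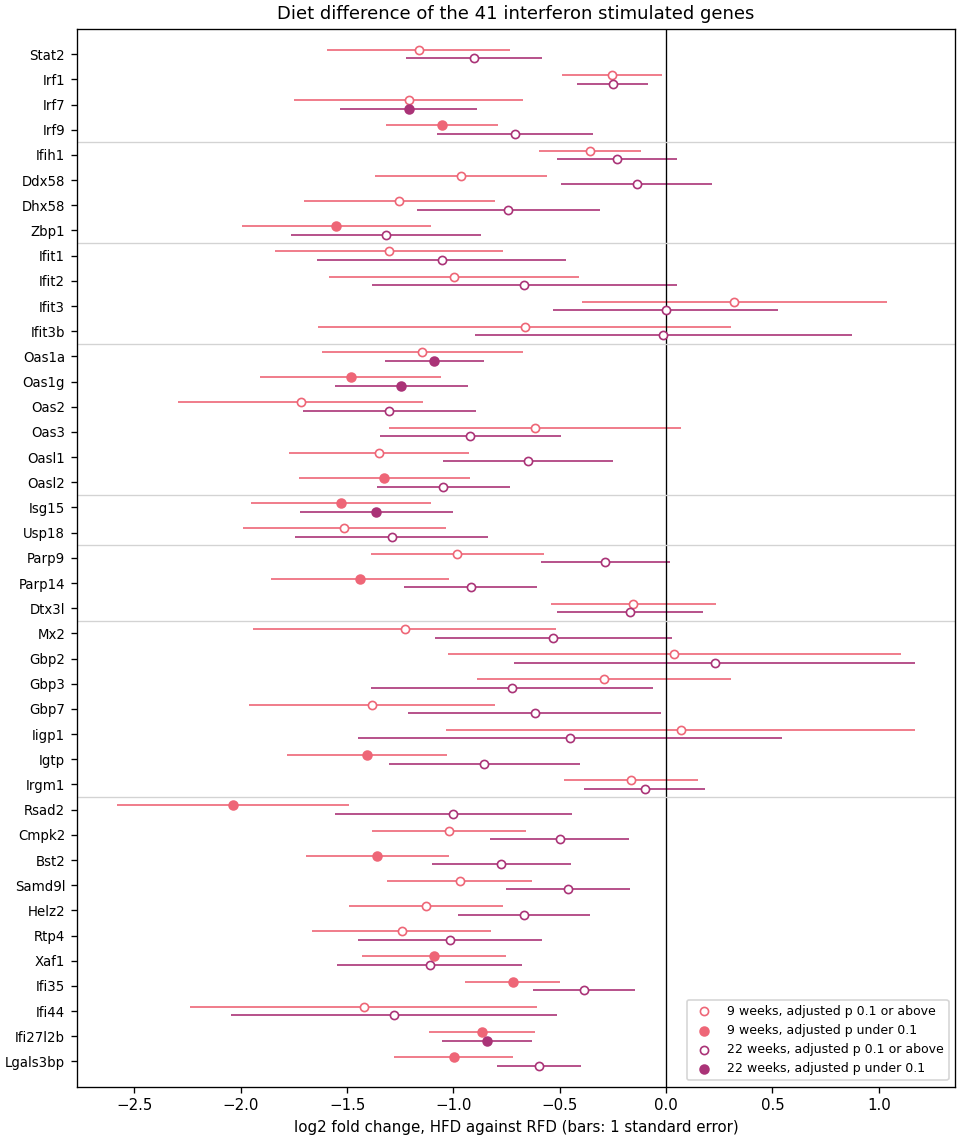
Log2 fold change of HFD against RFD (x axis) for each of the 41 members (y axis, grouped by role), at 9 weeks (upper mark of each pair) and 22 weeks (lower mark). Bars are 1 standard error and filled marks have an adjusted p under 0.1. All 13 filled marks at 9 weeks and all 5 at 22 weeks lie left of 0.

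The number of members past the threshold, like that of all genes, rested on single libraries, while the members called were lower on HFD in each fit. Leaving out 1 library in turn at 9 weeks gave 0 to 28 called members, with 37 to 40 lower and medians from -1.31 to -1.03. No member was called at 9 weeks without RFD mouse 1 or 23 or HFD mouse 6, 8, 70 or 80, with 25 to 28 at an unadjusted p under 0.05 in those 6 fits. Without RFD mouse 3, 84, 21 or 24, 2 were called. The count was 4 without RFD mouse 22 or HFD mouse 5 or 50, 22 without RFD mouse 20, and 28 without HFD mouse 64. Of all genes, 0.421% to 0.713% were called in the 6 fits without a called member and 0.792% to 1.88% in those with 2 or 4. The share was 11.9% without RFD mouse 20 and 14.2% without HFD mouse 64. At 22 weeks the count ran from 1 to 10, with 36 to 41 lower. It was 1 without RFD mouse 10, 30, 40, 23 or 24 or HFD mouse 7, 8 or 32, and 2 without RFD mouse 2 or HFD mouse 70, 80 or 34. It was 3 without RFD mouse 21 or 22 or HFD mouse 5, 6 or 33, and 10 without RFD mouse 1 or 3. Of all genes, 0.414% to 0.656% were called in the 22-week fits with 1 to 3 members named here. The share was 4.76% without RFD mouse 1 and 1.72% without RFD mouse 3. No member was called higher on HFD in any of these fits.

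Tuft and other cell markers also differed in median between the diets. The summed tuft markers had a 9-week median of 11709 CPM on RFD against 4904 CPM on HFD, and a 22-week median of 12799 against 10199 CPM. Summed over the 41 members, the level ran from 850 to 2120 CPM in the 10 low-tuft libraries and from 1568 to 7198 CPM in the other 35. Ifi27l2b and Lgals3bp held a large part of this sum. Without them it ran from 391 to 1302 CPM in the low-tuft libraries and from 898 to 4885 CPM in the others. Without the low-tuft libraries, 4 members fell at 9 weeks (Oasl2, Isg15, Bst2 and Lgals3bp), 35 were lower and the median was -0.88, while 0.799% of all genes were called. In the remaining 9-week libraries the summed level ran from 3877 to 6159 CPM on RFD (n = 8) and from 1797 to 4409 CPM on HFD (n = 6), where only HFD mouse 64 lay above the lowest RFD library. Leaving out the low-tuft libraries did not even out the tuft markers between the diets at 9 weeks. Their sum still ran from 10669 to 19492 CPM on RFD and from 4904 to 18318 CPM on HFD. HFD mice 5, 7, 60 and 62 lay below every remaining RFD library in tuft markers. At 22 weeks 8 members fell without the low-tuft libraries, the 5 above with Oas2, Oasl2 and Parp14, and the median was -0.74. In that fit 2.45% of all genes were called, against 0.792% with all libraries of the set. The 6 Paneth markers summed to 57.7 to 110840.2 CPM on RFD and 113 to 593492 CPM on HFD at 9 weeks (medians 2732 and 28198), and to medians of 1444 and 10982 CPM at 22 weeks. With the Paneth markers as a covariate, 0 members were called at 9 weeks (27 at an unadjusted p under 0.05) against 0.193% of all genes, and 37 were lower with a median of -0.92. At 22 weeks 5 were called against 0.849% of all genes, with a median of -0.76. Summed stem and cycling cell markers had medians of 412 CPM on RFD against 1365 CPM on HFD in the 9-week set, and of 130.4 against 255 CPM in the 22-week set. AY036118, a gene that took a large share of the reads, held a median of 11.8% of them on RFD against 4.65% on HFD in the 9-week set and 8.92% against 5.54% in the 22-week set. Without AY036118 and Lars2, 11 members were called at 9 weeks and 3 at 22 weeks, with medians of -1.15 and -0.68. Of all genes, 2.99% and 0.735% were called in these fits. The part of the stem and cycling markers in the members' values was not tested.

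**Figure D2:**
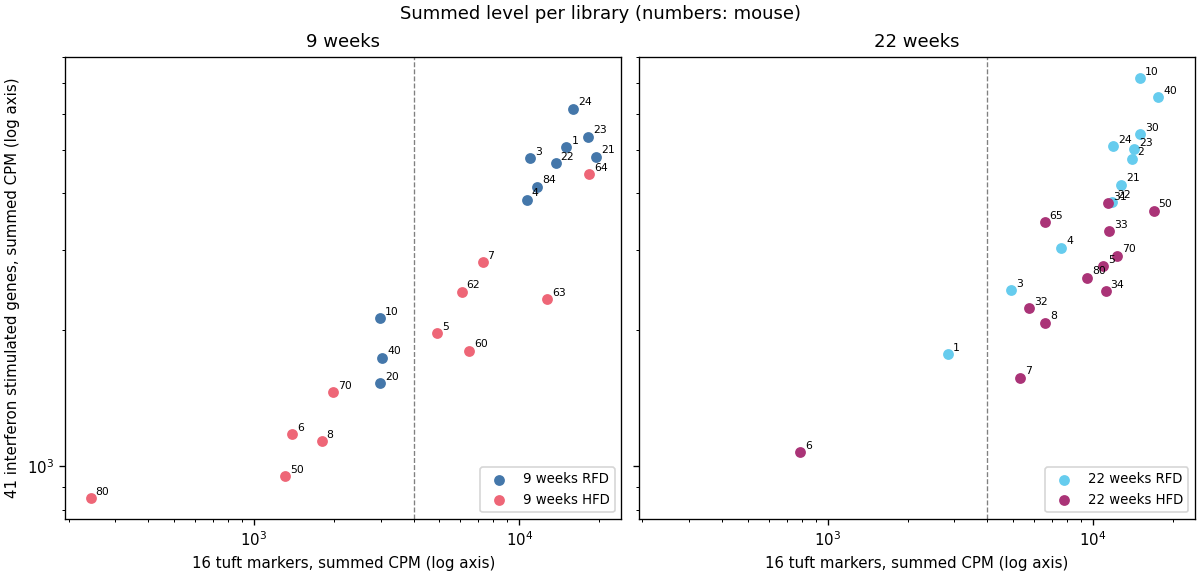
Summed level of the 41 members (y axis, CPM, log scale) against the summed level of 16 tuft markers (x axis, CPM, log scale) in each library at 9 weeks (left) and 22 weeks (right). Numbers are mice and the dashed line is at 4000 CPM of tuft markers. Libraries left of the line lie at or under 2120 CPM of the members on either diet.

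T cell markers were scarce, and their sums had lower medians on HFD. They summed to 1.09 to 70.02 CPM on RFD and 0.421 to 66.4 CPM on HFD at 9 weeks (medians 18.3 and 1.93), and to 1.46 to 98.3 CPM and 0.812 to 57.1 CPM at 22 weeks (medians 15.1 and 3.86). Of the 10 markers, Cd3d, Cd3g, Trac, Cd2 and Xcl1 did not pass the filter on low counts, and the median of Cd3e, which encodes a chain of the T cell receptor complex, was 0 CPM in both groups at 9 weeks. With these markers as a covariate, 1 member (Igtp) was called at 9 weeks and 0 at 22 weeks, with 28 and 12 at an unadjusted p under 0.05. The members' medians were then -1.17 and -0.67, and 0.228% and 0.321% of all genes were called. Summed enterocyte markers had a 9-week median of 12290 CPM on RFD against 9102 CPM on HFD, and a 22-week median of 17842 against 19390 CPM. With tuft minus enterocyte markers as a covariate, 2 members (Oas2 and Isg15) were called at 9 weeks, against 0.542% of all genes, with 38 lower and a median of -0.87. At 22 weeks 5 were called, against 0.842% of all genes, while the median moved from -0.72 to -0.38, with 32 members lower and 12 at an unadjusted p under 0.05.

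**Figure D3:**
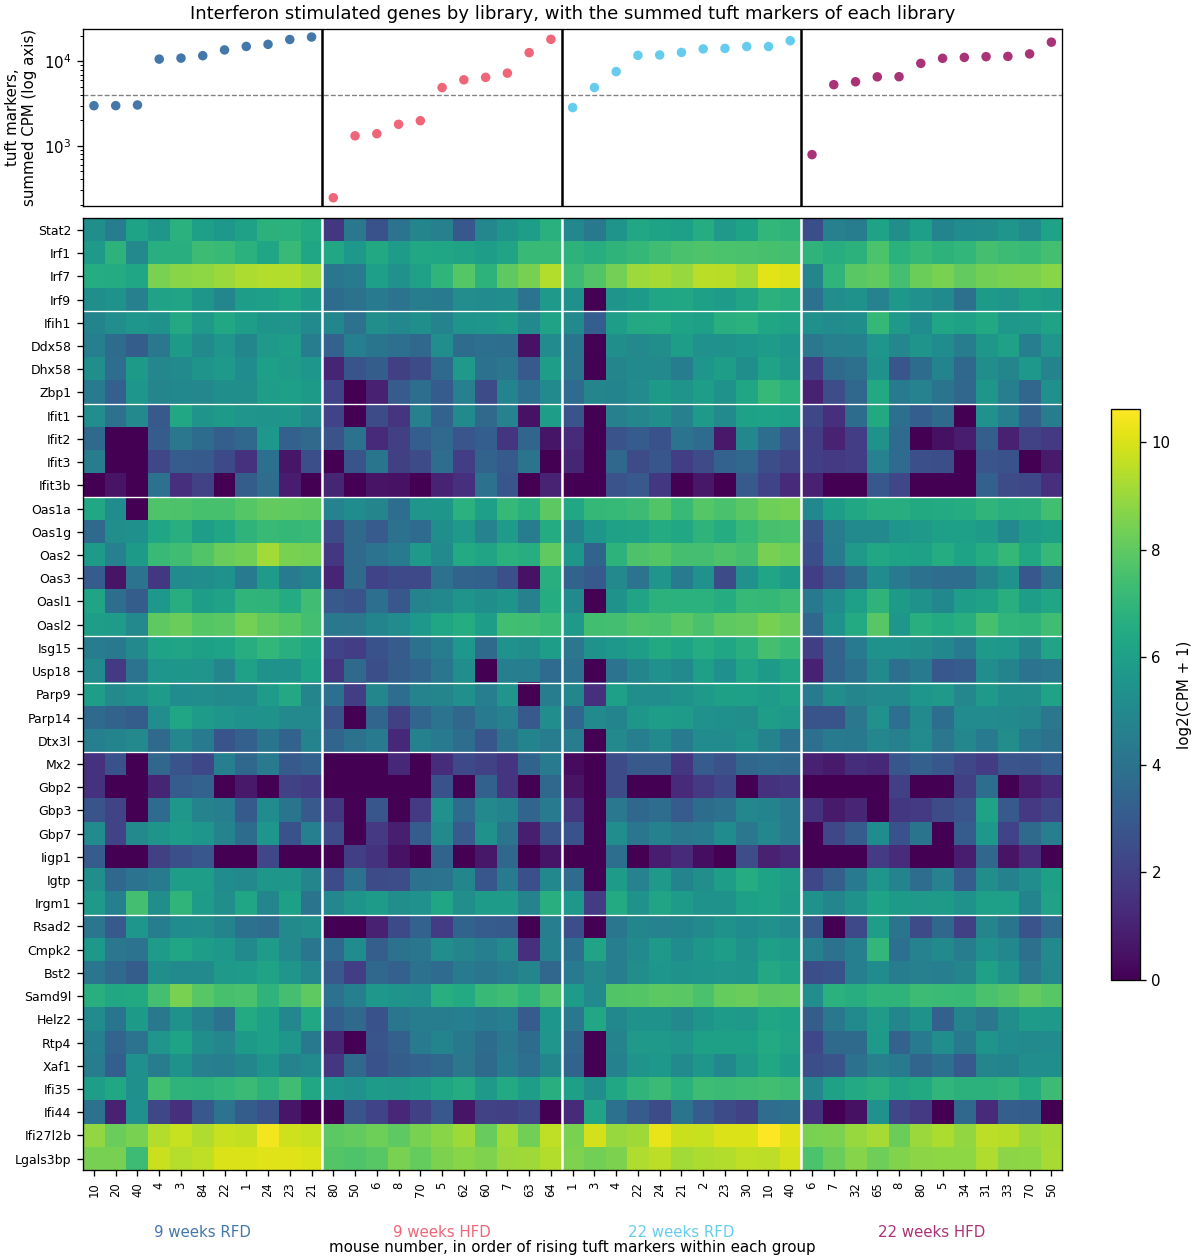
Level of each member (rows, grouped by role) in each of the 45 libraries (columns, mouse numbers) as log2(CPM + 1), from 0 (dark) to above 10 (yellow), with the summed tuft markers of the same libraries above (CPM, log scale; dashed line at 4000 CPM). Within each group libraries are ordered by rising tuft markers. Irf7, Ifi27l2b and Lgals3bp are the brightest rows and RFD mouse 3 at 22 weeks is dark in 19 rows.

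Levels differed widely among the members. Per length, the highest mean levels over the 45 libraries were those of Ifi27l2b (677 TPM, median 670.2), Lgals3bp (271 TPM, median 269), Irf7 (198 TPM, median 199.9) and Isg15 (96.9 TPM, median 97.7). The lowest were Gbp2 (0.846 TPM, median 0.250) and Iigp1 (0.668 TPM, median 0.160). The highest libraries were shared by many members. RFD mouse 24 was among the 3 highest of the 9-week set for 24 members, RFD mouse 3 for 18 and RFD mouse 23 for 15, and HFD mouse 64 was so for 9. In the 22-week set RFD mouse 10 was among the 3 highest for 27 members, RFD mouse 40 for 21, RFD mouse 30 for 20 and HFD mouse 65 for 10.

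Of the 4 transcription factors, Irf9 fell at 9 weeks and Irf7 at 22 weeks, and all 4 had negative fold changes at both times (medians -1.11 and -0.81). Irf9 (chr14:55603571-55610030, GRCm38), the DNA-binding partner of Stat2, ran from 23.3 to 75.97 CPM (median 57.1) on RFD and from 12.4 to 50.7 CPM (median 20.3) on HFD at 9 weeks. All 11 HFD libraries lay below the RFD median and 7 lay below every RFD library. The fold change was -1.05 (SE 0.26, adjusted p = 0.0565), and without the low-tuft libraries it was -0.88 (adjusted p = 0.199). At 22 weeks Irf9 ran from 0 to 112 CPM (median 64.6) on RFD and from 14.2 to 64.4 CPM (median 40.8) on HFD, with a fold change of -0.71 (SE 0.37, adjusted p = 0.513). The value of 0 was that of RFD mouse 3. Irf7 (chr7:141262706-141266481), a factor that is itself induced by interferon and drives further interferon production, ran from 154 to 1173 CPM (median 565) on RFD and from 28.3 to 421 CPM (median 281) on HFD at 22 weeks. Every HFD library lay below the RFD median, and 8 of 11 RFD libraries lay above every HFD library. Irf7 fell by 56.8%, a fold change of -1.21 (SE 0.32, adjusted p = 0.0978). Without the low-tuft libraries the fold change was -1.20 (adjusted p = 0.0111). At 9 weeks the Irf7 ranges were 77.8 to 671 CPM (median 455) on RFD and 16.9 to 677 CPM (median 117) on HFD. HFD mouse 64 held the highest value of that set, and the fold change was -1.21 (SE 0.54, adjusted p = 0.241). Stat2, a subunit of the ISRE-binding complex, had medians of 65.5 and 23.5 CPM on RFD and HFD at 9 weeks, with a fold change of -1.16 (SE 0.43, adjusted p = 0.157), and of 70.6 and 35.8 CPM at 22 weeks, with -0.90 (SE 0.32, adjusted p = 0.271). Irf1, a factor that responds foremost to interferon gamma, had fold changes of -0.25 (SE 0.24, adjusted p = 0.607) and -0.25 (SE 0.17, adjusted p = 0.643).

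Of the 4 sensors of nucleic acid, Zbp1 fell at 9 weeks and none was called at 22 weeks. Zbp1 (chr2:173206612-173218923), which binds Z-form nucleic acid and can start necroptosis, ran from 8.42 to 63.2 CPM (median 36.98) on RFD and from 0 to 32.9 CPM (median 7.48) on HFD at 9 weeks. No HFD library reached the RFD median and 6 lay below every RFD library. The fold change was -1.55 (SE 0.44, adjusted p = 0.0757), and -1.23 (adjusted p = 0.187) without the low-tuft libraries. At 22 weeks Zbp1 ran from 12.05 to 139 CPM (median 44.6) on RFD and from 0.974 to 85.3 CPM (median 17.8) on HFD, with a fold change of -1.32 (SE 0.45, adjusted p = 0.253). With the number series of the mice as a term, a fit that leaves out HFD mouse 65, Zbp1 was called at 22 weeks as well. HFD mouse 65 was the high value among the 22-week HFD libraries. Ddx58 (chr4:40203773-40239828), which encodes the RNA sensor RIG-I, was the member with the smallest p for a difference between the sets in its diet response. It ran from 7.78 to 58.3 CPM (median 27.9) on RFD and from 0.421 to 36.3 CPM (median 13.7) on HFD at 9 weeks, and from 0 to 59.9 CPM (median 39.9) on RFD and 17.5 to 66.05 CPM (median 32.04) on HFD at 22 weeks. The fold changes were -0.96 (SE 0.41, adjusted p = 0.202) and -0.14 (SE 0.36, adjusted p = 0.938), and the difference between them was 0.90 (SE 0.55, adjusted p = 1, unadjusted p = 0.105). Dhx58, which encodes the related LGP2, had fold changes of -1.26 (SE 0.45, adjusted p = 0.143) and -0.74 (SE 0.43, adjusted p = 0.577). Ifih1, which encodes the RNA sensor MDA5, had -0.36 (SE 0.24, adjusted p = 0.445) and -0.23 (SE 0.28, adjusted p = 0.834).

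None of the 4 Ifit genes, which bind foreign RNA and hinder its translation, was called at either time, and 1 (Ifit1, at 9 weeks) had an unadjusted p under 0.05. Ifit1 had medians of 44.04 and 9.08 CPM on RFD and HFD at 9 weeks and of 32.7 and 12.1 CPM at 22 weeks, with fold changes of -1.30 (SE 0.54, adjusted p = 0.197) and -1.06 (SE 0.59, adjusted p = 0.553). Ifit2, Ifit3 and Ifit3b were low, with group medians between 0.814 and 11.03 CPM. Their fold changes were -1.0, 0.32 and -0.67 at 9 weeks, and at 22 weeks they were -0.67, 0.00 and -0.01. Ifit3 and Ifit3b are near-identical copies whose reads the counting could split, so their separate values are uncertain.

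The 6 oligoadenylate synthetase genes all had negative fold changes at both times, with medians of -1.34 at 9 weeks and -1.07 at 22 weeks. All 6 lie on chromosome 5, with Oas2, Oas3, Oas1g and Oas1a between 120730333 and 120907521 and Oasl2 and Oasl1 between 114896936 and 114937915. The encoded enzymes sense double-stranded RNA and make the oligoadenylate that activates RNase L, and Oasl1 and Oasl2 encode relatives of them. Oas1g (chr5:120876142-120887613) ran from 11.4 to 148 CPM (median 74.9) on RFD and from 4.51 to 91.97 CPM (median 21.1) on HFD at 9 weeks, and from 24.6 to 191 CPM (median 92.1) and 5.85 to 64.3 CPM (median 49.4) at 22 weeks. At 22 weeks 9 of 11 RFD libraries lay above every HFD library, the largest such count of any member at that time. Oas1g fell at both times, with fold changes of -1.48 (SE 0.42, adjusted p = 0.0777) and -1.24 (SE 0.31, adjusted p = 0.0677). Without the low-tuft libraries these were -1.18 (adjusted p = 0.103) and -1.25 (adjusted p = 0.0111). Oas1a (chr5:120896256-120907521) ran from 81.3 to 339 CPM (median 189) on RFD and from 30.2 to 166 CPM (median 95.4) on HFD at 22 weeks. All 12 HFD libraries lay below the RFD median, and the fold change of -1.09 (SE 0.23, adjusted p = 0.026) had the smallest p of the members at that time. At 9 weeks Oas1a ran from 0 to 269 CPM (median 199.96) on RFD and from 13.3 to 245 CPM (median 47.5) on HFD, with a fold change of -1.15 (SE 0.47, adjusted p = 0.2). The 0 was the library of RFD mouse 40, which had the fewest reads of all. Oas1a and Oas1g are similar in sequence, down to the printed promoter windows, and their reads could be split between them.

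Oasl2 (chr5:114896936-114912234) ran from 31.1 to 332 CPM (median 225) on RFD and from 17.4 to 166 CPM (median 60.2) on HFD at 9 weeks. In that set 8 of 11 RFD libraries lay above every HFD library. At that time it fell by 60.1%, a fold change of -1.32 (SE 0.40, adjusted p = 0.097), and without the low-tuft libraries the fold change was -1.09 (adjusted p = 0.0798). At 22 weeks it ran from 50.96 to 346 CPM (median 208) on RFD and from 10.7 to 228 CPM (median 101) on HFD, with a fold change of -1.05 (SE 0.31, adjusted p = 0.16), or -1.05 (adjusted p = 0.0186) without the low-tuft libraries. The fold changes of Oas2 were -1.72 (SE 0.58, adjusted p = 0.128) and -1.30 (SE 0.41, adjusted p = 0.201), those of Oasl1 -1.35 (SE 0.42, adjusted p = 0.105) and -0.65 (SE 0.40, adjusted p = 0.608), and those of Oas3 -0.61 (SE 0.69, adjusted p = 0.685) and -0.92 (SE 0.42, adjusted p = 0.46). Of these 3 genes Oas2 was the most abundant in reads, with medians of 210.5 and 51.4 CPM at 9 weeks and 179.8 and 74.8 CPM at 22 weeks on RFD and HFD.

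Isg15 fell at both times. It encodes a ubiquitin-like protein that is attached to other proteins, and Usp18 encodes the protease that removes it and also restrains the type I receptor. Isg15 (chr4:156199424-156200818) ran from 18.8 to 130.3 CPM (median 70.1) on RFD and from 2.90 to 58.5 CPM (median 14.6) on HFD at 9 weeks. All 11 HFD libraries lay below the RFD median, and 8 RFD libraries lay above every HFD library. At 22 weeks Isg15 ran from 17.6 to 179 CPM (median 74.5) on RFD and from 2.92 to 71.5 CPM (median 33.3) on HFD. Every one of the 12 HFD libraries lay below the RFD median and 6 RFD libraries lay above every HFD library. The fold changes were -1.53 (SE 0.42, adjusted p = 0.0715) and -1.36 (SE 0.36, adjusted p = 0.092). Without the low-tuft libraries they were -1.20 (adjusted p = 0.0967) and -1.37 (adjusted p = 0.0174). Usp18 had medians of 41.5 and 11.6 CPM at 9 weeks and 39.2 and 15.1 CPM at 22 weeks on RFD and HFD, with fold changes of -1.51 (SE 0.48, adjusted p = 0.104) and -1.29 (SE 0.45, adjusted p = 0.271). Other genes of ISG15 conjugation were measured as well. Ube2l6, the conjugating enzyme for ISG15, fell at 9 weeks, from a median of 55.8 to 27.3 CPM, with a fold change of -0.94 (SE 0.25, adjusted p = 0.0662), and had -0.85 (SE 0.24, adjusted p = 0.137) at 22 weeks. Herc6, a ligase for ISG15 in the mouse, had fold changes of -0.54 (SE 0.50, adjusted p = 0.607) and -1.21 (SE 0.45, adjusted p = 0.304).

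**Figure D4:**
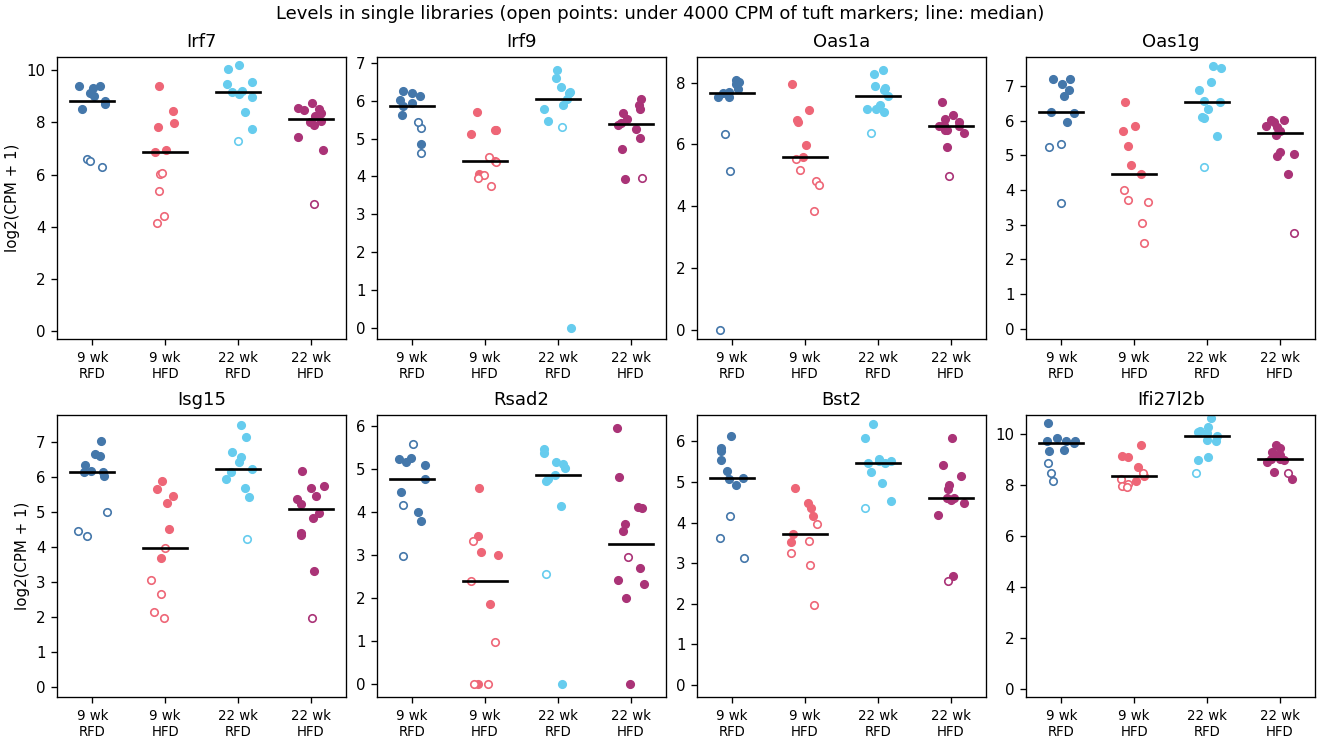
Level in each library, as log2(CPM + 1), of 8 members that passed the test in at least 1 diet comparison, by time and diet (x axis). Points are libraries, open points are the 10 libraries under 4000 CPM of tuft markers and lines are group medians. The median of HFD lies below that of RFD in each panel at both times, with overlapping points.

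Parp14 fell at 9 weeks and the other genes of its group, Parp9 and Dtx3l, were not called at either time. These encode ADP-ribosyl transferases and a ubiquitin ligase that partners with Parp9, and all 3 lie together on chromosome 16. Parp14 (chr16:35832874-35871544) ran from 7.78 to 77.5 CPM (median 36.1) on RFD and from 0 to 35.5 CPM (median 10.1) on HFD at 9 weeks. All 11 HFD libraries lay below the RFD median, and the fold change was -1.44 (SE 0.42, adjusted p = 0.0802), or -1.27 (adjusted p = 0.132) without the low-tuft libraries. At 22 weeks it ran from 11.1 to 60.6 CPM (median 40.5) on RFD and from 5.76 to 39.98 CPM (median 23.3) on HFD. The fold change was -0.92 (SE 0.31, adjusted p = 0.254), and without the low-tuft libraries it was -0.94 (adjusted p = 0.0964), past the threshold. Parp9 (chr16:35938470-35972605) ran from 27.1 to 84.1 CPM (median 35.6) on RFD and from 0 to 45.5 CPM (median 22.3) on HFD at 9 weeks, and from 1.75 to 65.97 CPM (median 53.2) and 20.5 to 68.7 CPM (median 36.8) at 22 weeks. The HFD library of mouse 63 was the one without a read at 9 weeks. Fold changes were -0.98 (SE 0.41, adjusted p = 0.196) and -0.29 (SE 0.30, adjusted p = 0.805). Dtx3l (chr16:35926511-35939151) had fold changes of -0.15 (SE 0.39, adjusted p = 0.88) and -0.17 (SE 0.34, adjusted p = 0.914). Parp9 and Dtx3l overlap at their starts on opposite strands, and reads from the overlap cannot be assigned by strand in Smart-seq2 libraries.

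Of the 7 GTPase genes only Igtp was called, at 9 weeks, and the median fold change of the group was -0.29 at 9 weeks and -0.53 at 22 weeks. Igtp (chr11:58199556-58207591), an immunity-related GTPase that acts on vacuoles of intracellular pathogens, ran from 10.9 to 60.8 CPM (median 35.3) on RFD and from 4.34 to 29.8 CPM (median 14.5) on HFD at 9 weeks. All 11 HFD libraries lay below the RFD median and 7 RFD libraries lay above every HFD library. The fold change was -1.41 (SE 0.38, adjusted p = 0.0662), and -1.23 (adjusted p = 0.197) without the low-tuft libraries. At 22 weeks Igtp ran from 0 to 93.9 CPM (median 52.9) on RFD and from 3.90 to 65.4 CPM (median 24.7) on HFD, with a fold change of -0.85 (SE 0.45, adjusted p = 0.52). Irgm1, a regulator of the same GTPase family, had fold changes of -0.17 (SE 0.32, adjusted p = 0.835) and -0.10 (SE 0.29, adjusted p = 0.944). Gbp7 had -1.38 (SE 0.58, adjusted p = 0.2) and -0.62 (SE 0.60, adjusted p = 0.781), Mx2 had -1.23 (SE 0.71, adjusted p = 0.373) and -0.53 (SE 0.56, adjusted p = 0.803), and Gbp3 had -0.29 (SE 0.60, adjusted p = 0.847) and -0.72 (SE 0.66, adjusted p = 0.768). Gbp2 and Iigp1 were close to the limit of detection. Gbp2 (chr3:142620602-142638008) ran from 0 to 9.07 CPM (median 1.14) on RFD and from 0 to 10.97 CPM (median 0) on HFD at 9 weeks, and from 0 to 4.46 CPM (median 1.46) and 0 to 13.2 CPM (median 0) at 22 weeks. It had no read in 4 and 7 libraries at 9 weeks and again in 4 and 7 at 22 weeks. Iigp1 ran from 0 to 7.58 CPM (median 0) on RFD and from 0 to 11.1 CPM (median 0.523) on HFD at 9 weeks, and from 0 to 13.4 CPM (median 0.767) and 0 to 10.5 CPM (median 0.246) at 22 weeks. At these counts no diet difference was detectable for Gbp2 (0.04 (SE 1.07, adjusted p = 0.992) and 0.23 (SE 0.94, adjusted p = 0.959)) or Iigp1 (0.07 (SE 1.10, adjusted p = 0.985) and -0.45 (SE 1.00, adjusted p = 0.923)). The Gbp genes form a family with similar members, so their separate counts are uncertain.

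Of the 11 other effectors, Rsad2, Bst2, Xaf1, Ifi35, Ifi27l2b and Lgals3bp fell at 9 weeks and Ifi27l2b fell at 22 weeks. All 11 had negative fold changes at both times, with medians of -1.09 and -0.77. Rsad2 (chr12:26442746-26456452), which encodes viperin, an enzyme that makes a chain-terminating nucleotide, ran from 6.93 to 46.7 CPM (median 26.4) on RFD and from 0 to 22.5 CPM (median 4.29) on HFD at 9 weeks. All 11 HFD libraries lay below the RFD median and 3 of them had no read. The fold change was -2.04 (SE 0.55, adjusted p = 0.0662), or -1.71 (adjusted p = 0.222) without the low-tuft libraries. At 22 weeks Rsad2 ran from 0 to 43.1 CPM (median 28.3) on RFD and from 0 to 61.3 CPM (median 8.79) on HFD, where HFD mouse 65 was above every RFD library. The fold change at that time was -1.0 (SE 0.56, adjusted p = 0.552). Cmpk2, the neighbour of Rsad2 on chromosome 12, encodes a mitochondrial nucleotide kinase and had fold changes of -1.02 (SE 0.36, adjusted p = 0.138) and -0.50 (SE 0.33, adjusted p = 0.635).

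Bst2 (chr8:71534255-71537456), which encodes tetherin, a protein that holds budding virus at the cell surface, had the smallest p of the members at 9 weeks. It ran from 7.78 to 69.3 CPM (median 33.03) on RFD and from 2.90 to 27.8 CPM (median 12.3) on HFD. No HFD library reached the RFD median and 8 RFD libraries lay above every HFD library. Bst2 fell by 60.99%, a fold change of -1.36 (SE 0.34, adjusted p = 0.0543), and without the low-tuft libraries the fold change was -1.31 (adjusted p = 0.0967). At 22 weeks Bst2 ran from 19.7 to 85.1 CPM (median 43.5) on RFD and from 4.87 to 66.7 CPM (median 23.4) on HFD, with a fold change of -0.77 (SE 0.33, adjusted p = 0.411). Xaf1 (chr11:72301629-72313733), a partner of the apoptosis inhibitor XIAP, ran from 7.92 to 44.4 CPM (median 25.8) on RFD and from 2.25 to 28.2 CPM (median 11.6) on HFD at 9 weeks. The groups were shifted and overlapped, with 10 of 11 HFD libraries below the RFD median, a fold change of -1.09 (SE 0.34, adjusted p = 0.0991) and -0.81 (adjusted p = 0.348) without the low-tuft libraries. At 22 weeks the Xaf1 ranges were 0 to 82.2 CPM (median 44.7) on RFD and 4.87 to 38.3 CPM (median 16.7) on HFD, with a fold change of -1.11 (SE 0.44, adjusted p = 0.352). Ifi35 (chr11:101448407-101458698) ran from 38.9 to 166 CPM (median 115) on RFD and from 40.6 to 103 CPM (median 58.5) on HFD at 9 weeks. All 11 HFD libraries lay below the RFD median. The fold change was -0.72 (SE 0.22, adjusted p = 0.099), with -0.72 (adjusted p = 0.151) without the low-tuft libraries, and at 22 weeks it was -0.38 (SE 0.24, adjusted p = 0.609), with ranges of 37.7 to 169 CPM (median 148) on RFD and 29.2 to 153 CPM (median 97.7) on HFD.

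Ifi27l2b and Lgals3bp were the members with the highest level per length. Ifi27l2b (chr12:103450898-103457223), of the Ifi27 family of small membrane proteins, ran from 289 to 1372 CPM (median 799.9) on RFD and from 242 to 769.8 CPM (median 330.2) on HFD at 9 weeks, and from 359 to 1569 CPM (median 985) and 301 to 758 CPM (median 519.6) at 22 weeks. All HFD libraries lay below the RFD median at both times, and at 22 weeks 8 of 11 RFD libraries lay above every HFD library. It fell by 45.1% and 44.3%, with fold changes of -0.87 (SE 0.25, adjusted p = 0.0757) and -0.84 (SE 0.21, adjusted p = 0.0646). They were, without the low-tuft libraries, -0.83 (adjusted p = 0.109) and -0.90 (adjusted p = 0.0147). A close copy, Ifi27l2a, was near 0 in reads (medians 4.17 and 0 CPM at 9 weeks), and reads of the pair could be split. Lgals3bp (chr11:118392751-118402092), which encodes a secreted glycoprotein that binds galectin-3, ran from 156 to 1100.4 CPM (median 863) on RFD and from 203 to 664 CPM (median 369) on HFD at 9 weeks. In that set 8 RFD libraries lay above every HFD library. Its fold change was -1.0 (SE 0.28, adjusted p = 0.0728), and without the low-tuft libraries -0.97 (adjusted p = 0.0368), the smallest adjusted p of the members in that fit. At 22 weeks the ranges were 329 to 958 CPM (median 649) on RFD and 193 to 655 CPM (median 434) on HFD, with a fold change of -0.60 (SE 0.20, adjusted p = 0.236). The remaining effectors were not called. Samd9l, which restrains protein synthesis, had fold changes of -0.97 (SE 0.34, adjusted p = 0.135) and -0.46 (SE 0.29, adjusted p = 0.621), and Helz2, a helicase, had -1.13 (SE 0.36, adjusted p = 0.107) and -0.67 (SE 0.31, adjusted p = 0.463). Rtp4 had -1.24 (SE 0.42, adjusted p = 0.123) and -1.02 (SE 0.43, adjusted p = 0.417), and Ifi44 had -1.42 (SE 0.81, adjusted p = 0.366) and -1.28 (SE 0.77, adjusted p = 0.591).

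Whether the diet difference itself changed between the sets was tested as an interaction over all 45 libraries. No member was called, as for 0.0% of all genes, and 0 members had an unadjusted p under 0.05 against 3.22% of all genes, by edgeR. DESeq2 called 0 members and 0 genes as well. The median interaction was 0.34 on the log2 scale, towards a smaller decrease at 22 weeks, and it was 0.03 without the low-tuft libraries. After Ddx58 the smallest p were those of Parp9, with 0.75 (SE 0.51, adjusted p = 1, unadjusted p = 0.149), and Bst2, with 0.65 (SE 0.47, adjusted p = 1, unadjusted p = 0.169). Compared between the sets on one diet, the members were close in level on RFD, with a median log2 difference of 0.17 (22-week minus 9-week set), no member called against 1.46% of all genes, and 1 (Irf1) at an unadjusted p under 0.05 against 10.2% of all genes. On HFD the median difference was 0.50, with 11 members at an unadjusted p under 0.05, against 16.9% of all genes. Only Irf1 was called, against 5.78% of all genes called and 3.47% called as higher. Irf1 (chr11:53770014-53778374) ran from 49.3 to 144 CPM (median 76.9) in the 9-week HFD libraries and from 97.2 to 192 CPM (median 131) in the 22-week HFD libraries. The ranges overlapped, and the difference was 0.71 (SE 0.20, adjusted p = 0.0276) on HFD and 0.65 (SE 0.20, adjusted p = 0.11) on RFD. Without the low-tuft libraries no member was called on HFD, against 1.67% of all genes, and the median difference was -0.02.

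The rest of the pathway was followed in a list of 64 further genes, of which 51 were tested. At 9 weeks 5 of them passed the threshold, 4 lower and 1 higher, against 3.32% of all genes. A negative fold change was found for 36 of 51 (median -0.42), against 52.7% of all genes (median -0.05). At 22 weeks 0 passed by edgeR, 10 had an unadjusted p under 0.05 as lower and 1 as higher, and 36 of 51 were again negative (median -0.27). Over all genes 0.792% passed, 10.3% had an unadjusted p under 0.05 and 52.1% were negative (median -0.03). None of the 51 was called at 9 weeks without the low-tuft libraries, nor with the Paneth, T cell or tuft minus enterocyte markers as a covariate. With DESeq2 14 were called, against 10.9% of all genes. Leaving out 1 library gave 0 to 15 called, with 0 without RFD mouse 1, 84, 23 or 24 or HFD mouse 6, 8, 70 or 80 and 15 without HFD mouse 64. Of all genes, 0.421% to 0.884% were called in the fits with 0, and 14.2% without HFD mouse 64. None of the 9 ligand genes listed (Ifna1, Ifna2, Ifna4, Ifnb1, Ifng, Ifnk, Ifne, Ifnl2 and Ifnl3) reached the filter, with at most 3 reads in any library and none at all for Ifna4, Ifnk and Ifnl3.

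The receptor genes were all read in these libraries and none was called by diet. Ifnar1 had medians of 29.4 and 29.7 CPM on RFD and HFD at 9 weeks and 46.04 and 36.3 CPM at 22 weeks, with fold changes of 0.08 (SE 0.30, adjusted p = 0.918) and -0.28 (SE 0.35, adjusted p = 0.84). Its partner Ifnar2 had medians of 42.9, 23.7, 63.5 and 39.6 CPM in the same order, with -0.96 (SE 0.32, adjusted p = 0.119) and -0.60 (SE 0.26, adjusted p = 0.419). For the type III receptor, Ifnlr1 had medians of 7.79, 2.57, 10.3 and 6.18 CPM, with -1.80 (SE 0.67, adjusted p = 0.159) and -0.39 (SE 0.46, adjusted p = 0.826). Il10rb, which also serves the receptor of interleukin 10, had medians of 123, 70.3, 179 and 137 CPM, with -0.66 (SE 0.25, adjusted p = 0.159) and -0.34 (SE 0.21, adjusted p = 0.612). The interferon gamma receptor genes had positive fold changes at both times, whereas that of Ifnar1 was above 0 at 9 weeks only. Ifngr1 had medians of 64.2, 114, 49.8 and 83.9 CPM, with 0.64 (SE 0.27, adjusted p = 0.197) and 0.32 (SE 0.30, adjusted p = 0.775), and Ifngr2 had 0.34 (SE 0.20, adjusted p = 0.378) and 0.33 (SE 0.17, adjusted p = 0.513). Between the sets, Ifnar2, Il10rb and Pml were called as higher at 22 weeks on HFD, and Tbk1, a kinase upstream of the interferon genes, on RFD. These shares were near those of all genes. On HFD 5.88% of the 51 were called against 5.78% of all genes, and on RFD 1.96% against 1.46%. None of the 51 was called in either set comparison without the low-tuft libraries or with the mouse number as a block. Of all genes, 1.97% on RFD and 1.67% on HFD were called without the low-tuft libraries. With the block 0.0999% and 0.0357% were called.

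Among the pathway genes that fell at 9 weeks, beside Ube2l6, were Pml and Sp100, which encode proteins of nuclear bodies. Pml ran from 5.70 to 75.3 CPM (median 35.4) on RFD and from 2.09 to 24.8 CPM (median 12.1) on HFD, with a fold change of -1.33 (SE 0.41, adjusted p = 0.0971). Sp100 ran from 11.9 to 55.6 CPM (median 26.6) on RFD and from 2.25 to 25.3 CPM (median 10.8) on HFD, with -1.17 (SE 0.35, adjusted p = 0.0847). At 22 weeks their fold changes were -0.41 (SE 0.28, adjusted p = 0.648) and -1.01 (SE 0.41, adjusted p = 0.384). Ptpn2, a phosphatase that removes phosphate from Janus kinases, rose at 9 weeks. Its level ran from 0 to 30.7 CPM (median 15.5) on RFD and from 18.3 to 52.2 CPM (median 34.8) on HFD, with a fold change of 1.01 (SE 0.31, adjusted p = 0.0925), and at 22 weeks the fold change was 0.54 (SE 0.29, adjusted p = 0.529).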

How the data were processed

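RNA from sorted tuft cells of 45 mice was amplified by Smart-seq2 and sequenced in pairs. Per the labels the reads were trimmed with cutadapt 1.15, aligned with STAR 2.6.0 and counted with RSEM, with GRCm38 named as the build. The authors deposited expected counts per gene, which RSEM divides among genes that share reads (8.79% of values above 0 were not whole), and TPM, which is scaled per transcript length and library. The deposited counts precede the low-count filter of the authors and their weighing by cell type proportion. The rule of that filter was applied again. The weighing, and the authors' removal of non-tuft marker genes, were not repeated. The deposited FPKM tables and 24 columns of samples outside these 45 were not used. Of the 47729 gene identifiers, 47310 were paired with symbols. Positions are those of GENCODE M21 on GRCm38.

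Counts were rounded, and genes with more than 5 reads in at least 6 libraries were kept (14020). HFD was compared with RFD in each set with edgeR 4.0.16 in R 4.3.3 (TMM, robust quasi-likelihood fit, Benjamini-Hochberg over all genes tested). Interaction and set differences came from 1 fit over all 45 libraries. CPM were scaled by TMM over all libraries, and log2 fold changes are HFD minus RFD. Alternatives were DESeq2 1.42.0 and its size factors, limma 3.58.1 on log2(TPM + 1) and log2(TPM + 0.1), no filter, marker covariates, the series of mouse numbers (3 runs of numbers that may follow the days of termination, which no label states), the mouse number as a block, and leaving out libraries. Mouse numbers did not pair the samples (correlations of deviations from -0.37 to 0.35).

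The 41 members, the pathway list and the marker lists were chosen with earlier results of these data known. Values of 1 gene of the pathway list are not reported here. Values by library are given for the members called at either time, the 6 with the smallest p at each time, the 3 with the smallest interaction p, and the 4 highest and 2 lowest by mean TPM. Promoter windows were taken from RefSeq, GRCm38.p6, with 31 of 41 members matched. Libraries of single mice were treated as independent replicates, so p-values measure the spread between mice, preparation included. The authors housed the mice 4 to a cage and took 1 cage of each group on each of 3 days. The labels name no cage, so effects shared within a cage were not modelled.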

Additional observations from a re-analysis of the deposited data

How the results depend on the processing

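No member was called as higher on HFD under any alternative at either time, and the median fold change of the members was negative in each. At 9 weeks, where 13 were called, the count was 27 with DESeq2, 21 without the filter on low counts, 4 without the low-tuft libraries, 2 with tuft minus enterocyte markers, 1 with T cell markers, and 0 with Paneth markers or with limma on log2(TPM + 1) or log2(TPM + 0.1), which each had 26 at an unadjusted p under 0.05. At 22 weeks, where 5 were called, it was 9 with DESeq2 or with the number series as a term, 8 without the low-tuft libraries, 3 without AY036118 and Lars2 or without edgeR's robust option, and 0 with T cell markers, in 1 fit over all 45 libraries (16 at an unadjusted p under 0.05) and with limma on either scale (12 and 13). Leave-one-out counts ran from 0 to 28 and from 1 to 10. For the whole table, called genes at 9 weeks ran from 59 to 1996 and at 22 weeks from 58 to 667 in the leave-one-out fits, and numbered 1534 and 351 with DESeq2. At 9 weeks the share of all genes called was 10.9% with DESeq2, 4.16% without the filter and 3.25% with the number series. With limma it was 0.0642% on log2(TPM + 1) and 0.0357% on log2(TPM + 0.1). Without libraries under 500000 reads it was 2.07%. At 22 weeks it was 2.50% with DESeq2 and 1.32% with the number series. It was 0.728% there without the robust option and 0.449% in the fit over all 45 libraries. With limma the 22-week share was 0.364% on log2(TPM + 1) and 0.221% on log2(TPM + 0.1). The interaction gave 0 members under each alternative. Between the sets, RFD gave 1 with DESeq2, its size factors, the number series or Paneth markers (1.70% to 4.23% of all genes). With tuft minus enterocyte markers RFD gave 2 (3.92% of all genes). HFD gave 3 with DESeq2 (11.1% of all genes) and 15 with tuft minus enterocyte markers (12.9% of all genes). It gave 0 without the filter (2.22% of all genes), without the low-tuft libraries (1.67%) or with Paneth markers (2.67%). The cause of these shifts was not tested. With the mouse number as a replicate block 0 members were called in the interaction and in both set comparisons, where HFD had 1. Of all genes, that block called 0.0999% on RFD and 0.0357% on HFD. Samples shared only a number, and no paired analysis was possible for diet because RFD and HFD mice of a set share no number. No library of the 22-week set had under 500000 reads, so of the diet comparisons only that at 9 weeks was rerun without such libraries, with 9 members called. In the interaction and the set comparisons this alternative left the counts at 0, 0 and 1. The number series, in which RFD mouse 84 of the 9-week set and HFD mouse 65 of the 22-week set have no place and were left out, gave 12 members at 9 weeks, without Parp14, Xaf1 and Ifi35 and with Dhx58 and Usp18. At 22 weeks its 9 were the 5 above with Stat2, Zbp1, Oasl2 and Parp14.

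Signs turned for 4 of the 19 genes described by library. The Gbp2 fold change at 9 weeks (0.04) became -0.0313 on log2(TPM + 1) and -0.46 on log2(TPM + 0.1), with a leave-one-out range from -0.56 to 0.48. At 22 weeks (0.23) it became -0.13 and -0.65 on these scales, -0.0936 with the number series, with a leave-one-out range from -1.04 (without HFD mouse 31) to 0.50 (without RFD mouse 4). Iigp1 at 9 weeks (0.07) became -0.0099 with DESeq2, -0.78 with the number series, -0.0391 without libraries under 500000 reads, -0.17 with tuft minus enterocyte markers and -0.0692 with Paneth markers, with a leave-one-out range from -0.53 to 0.36. At 22 weeks (-0.45) its leave-one-out range was from -1.82 (without HFD mouse 31) to 0.51 (without RFD mouse 4). Ddx58 at 22 weeks (-0.14) became 0.30 on log2(TPM + 1), 0.58 on log2(TPM + 0.1) and 0.23 with tuft minus enterocyte markers, and Parp9 at 22 weeks (-0.29) became 0.0485 with the latter. The precision of Gbp2, Iigp1 and the low Ifit genes is limited by depth, with at most 65 reads in any library. Added after the data were seen were the alternatives on low-tuft libraries, Paneth markers and the robust option.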

Other observations

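Interferon stimulated genes outside the 41 did not all share the direction. Of 22 tested, 18 had a negative fold change at 9 weeks and 18 at 22 weeks, with medians of -0.84 and -0.52. Ifitm2 and Ifitm3, which encode membrane proteins that block virus entry, were among those of the opposite sign, though neither was called. Ifitm3 ran from 4.49 to 76.2 CPM (median 20.1) on RFD and from 6.27 to 127 CPM (median 48.4) on HFD at 9 weeks, with a fold change (log2 scale) of 1.01 (SE 0.42, adjusted p = 0.196) in edgeR, and had 0.71 (SE 0.65, adjusted p = 0.768) at 22 weeks. Ifitm2 had 0.81 (SE 0.28, adjusted p = 0.135) and 0.44 (SE 0.37, adjusted p = 0.739). Ifi27, the relative of Ifi27l2b, had medians of 211 and 83.6 CPM at 9 weeks and 212 and 142 CPM at 22 weeks, with fold changes of -0.88 (SE 0.38, adjusted p = 0.21) and -0.45 (SE 0.26, adjusted p = 0.577).

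Ptpn6, a phosphatase listed among the inhibitors of the pathway, was the most highly read gene of that group, with medians of 1283 and 455 CPM at 9 weeks and 1804 and 1407 CPM at 22 weeks. Its fold changes were -0.94 (SE 0.48, adjusted p = 0.31) and -0.44 (SE 0.31, adjusted p = 0.671). Socs1, an inhibitor of Janus kinases that interferon induces, was near the limit of detection, with group medians of 2.44, 1.07, 1.11 and 0.838 CPM. Of the cGAS pathway, Tmem173 (STING) and Mb21d1 (cGAS) were low, with medians of 1.67 and 0.899 CPM on RFD at 9 weeks.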
